A study of Homo sapiens with 8 samples.

Results

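The HOX cluster genes are the homeobox genes whose symbol is HOXA, HOXB, HOXC or HOXD followed by a number. That rule used the symbols alone, and it found 37 members among the 18815 rows of the expression table: 10 in cluster A, 10 in cluster B, 8 in cluster C and 9 in cluster D. RefSeq lists 39 such human genes, and the other two, HOXA10 and HOXC5, were not analysed here. RNA was sequenced from the glioblastoma lines T98 and U87, which are established human lines. It was collected 72 h after siRNA had been delivered with Lipofectamine RNAiMAX. The siRNA was a control or targeted LKB1, a kinase whose gene is STK11. There were 4 groups of 2 libraries: T98 with control siRNA, T98 with LKB1 siRNA, U87 with control siRNA and U87 with LKB1 siRNA. The labels call the cells duplicated and do not say that the duplicates were separate transfections, so the p-values reflect the spread of these libraries alone, which may be technical. Each line is 1 line, so a difference between T98 and U87 describes these lines and not a class of tumour. Which siRNA sequences were used is not given in the sources used here.

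HOX proteins are homeodomain transcription factors that give cells their position along the body axis of the embryo. In each cluster the genes lie in the order in which they act from head to tail, so low paralog numbers mark the hindbrain and neck and high paralog numbers the lower trunk, tail and distal limb. Genes with the same number in different clusters are paralogs that arose by duplication of an ancestral cluster. HOX proteins bind DNA together with the cofactors PBX and MEIS. Polycomb complexes hold the clusters silent and trithorax complexes such as MLL keep them active. Adult forebrain expresses few HOX genes, and their expression is a known feature of many glioblastomas.

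For each gene, the authors' table holds a normalised read count in each library, called the value below. The values could be turned back into whole reads, which totalled 25234334 to 38031734 per library. Per the column names, lane 2 of the sequencer held 1 library of each group, lane 4 the remaining T98 libraries and lane 5 the remaining U87 libraries. Libraries of 1 line shifted together between lanes, so each comparison is given also with a term for the lane of each line (the lane-term fit) and as differences within a lane. STK11 had values of 1999 and 2041 in the T98 control libraries and 340 and 588 with LKB1 siRNA. In U87 its values were 2445 and 2041 with control siRNA and 361 and 385 with LKB1 siRNA, so its libraries followed their labels. Of the astrocytic markers, S100B, SOX2 and AQP4 were at or near 0 in all 8 libraries and GFAP lay between 1.85 and 50.7, whereas CD44 was between 37284 and 63018. Of these 10 markers 7 were tested between the control libraries by the limma fit described below. In T98, 4 were lower than in U87, beside 19.5% of all genes, and 0 higher, beside 18.3%. NES was among the lower ones, at 16.2 and 74.2 against 1361 and 1903. In such bulk RNA, fewer cells that express a gene and less of its RNA per cell cannot be told apart.

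Of the 37 members, 31 reached a value of 10 in at least 2 libraries and were tested: 8 in cluster A, 8 in B, 7 in C and 8 in D. The other members were HOXA6, with at most 18 reads in a library, HOXA9 with at most 2, HOXB1 with at most 1, HOXB8 with at most 4, HOXD12 with at most 3, and HOXC12 with 0 reads in all 8 libraries. For HOXC12, silence and a level below this depth cannot be told apart, and the other untested members were detected at 1 to 39 reads over all libraries. A member could be tested because of 1 group in which it was high, so the counts and medians below describe the tested members only.

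T98 and U87 differed in the levels of many HOX members, while others, such as HOXD8 and HOXC6, were among the higher members in both lines. In T98 the highest mean levels per kilobase of transcript belonged to HOXC10, HOXC13, HOXD10, HOXD8, HOXD11 and HOXD13, in that order. In U87, HOXB2 and HOXD8 led, and HOXB3, HOXC6 and HOXA4 were also among the highest. Between the control libraries, 11 of 31 tested members were higher in T98 and 4 were lower, by limma-trend on log2 of the value plus 1 with adjusted p below 0.05. Over all 14282 genes tested, 18.3% were higher and 19.5% lower, so 37.7% were called in either direction against 48.4% of the members. With the lane term, which estimates the difference at lane 2 from all 8 libraries, 16 members were higher and 8 lower, beside 30.7% and 32.6% of all genes and 63.3% in either direction. Both T98 control libraries lay above both U87 control libraries for 19 members (35.7% of all genes) and below them for 9 (35.9% of all genes). The calls of the lane-term fit rested on single libraries for several members: those of HOXA3 and HOXC8 were lost without any 1 of the 4 U87 libraries or the lane 2 T98 control library, those of HOXA5 and HOXD3 without either lane 2 control library, and those of HOXB9 and HOXD8 without the lane 2 U87 control library. The median absolute log2 difference was 1.72 over the tested members and 0.74 over all genes. That contrast was not tested, and members near 0 in 1 line, such as HOXB2 and HOXC13, were tested because of the other line.

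**Figure D1:**
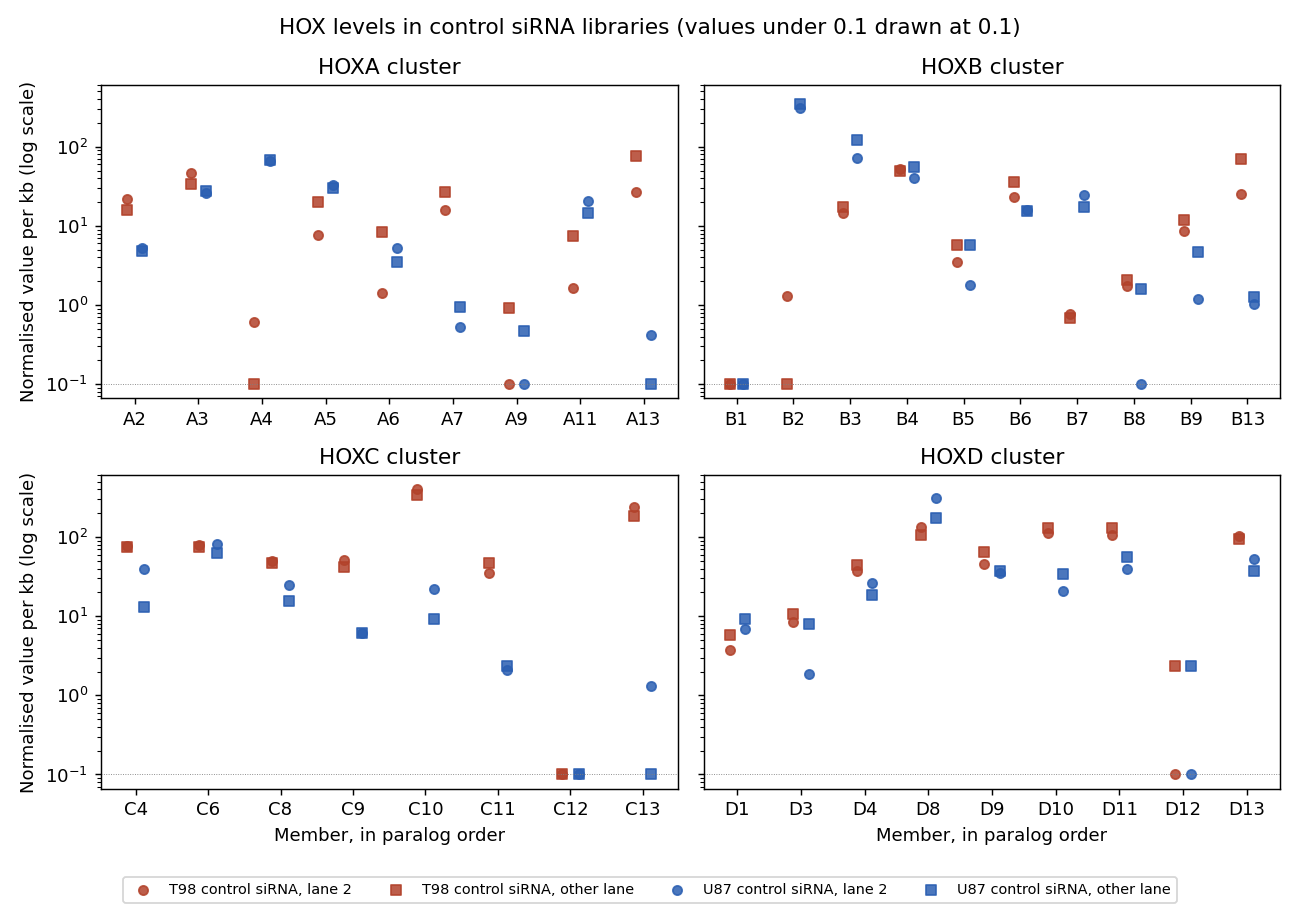
Normalised value per kilobase of transcript (log axis) in the 4 control siRNA libraries, by cluster and paralog number. Circles are lane 2 and squares the other lane (lane 4 for T98, lane 5 for U87). T98 lies above U87 at HOXC9 to HOXC11, HOXC13, HOXA13 and HOXB13, and U87 above T98 at HOXB2 and HOXA4. Values under 0.1 are drawn at 0.1.

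The difference varied with paralog number. Of the 12 tested members with paralog numbers 9 to 13, 11 had a log2 difference above 0, with a median of 2.48, and HOXA11 was the exception at -2.13. The median was 0.25 over the 12 members with numbers 4 to 8 and -0.71 over the 7 members with numbers 1 to 3, beside a median of -0.01 over all genes. By cluster, all 7 tested HOXC members were above 0 (median 2.79), as were 6 of 8 HOXD members (median 1.03). HOXB had 5 of 8 members above 0 (median 0.25) and HOXA 4 of 8 (median -0.08). HOXC6 fell below 0 without the lane 5 U87 control library, at -0.10.

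**Figure D2:**
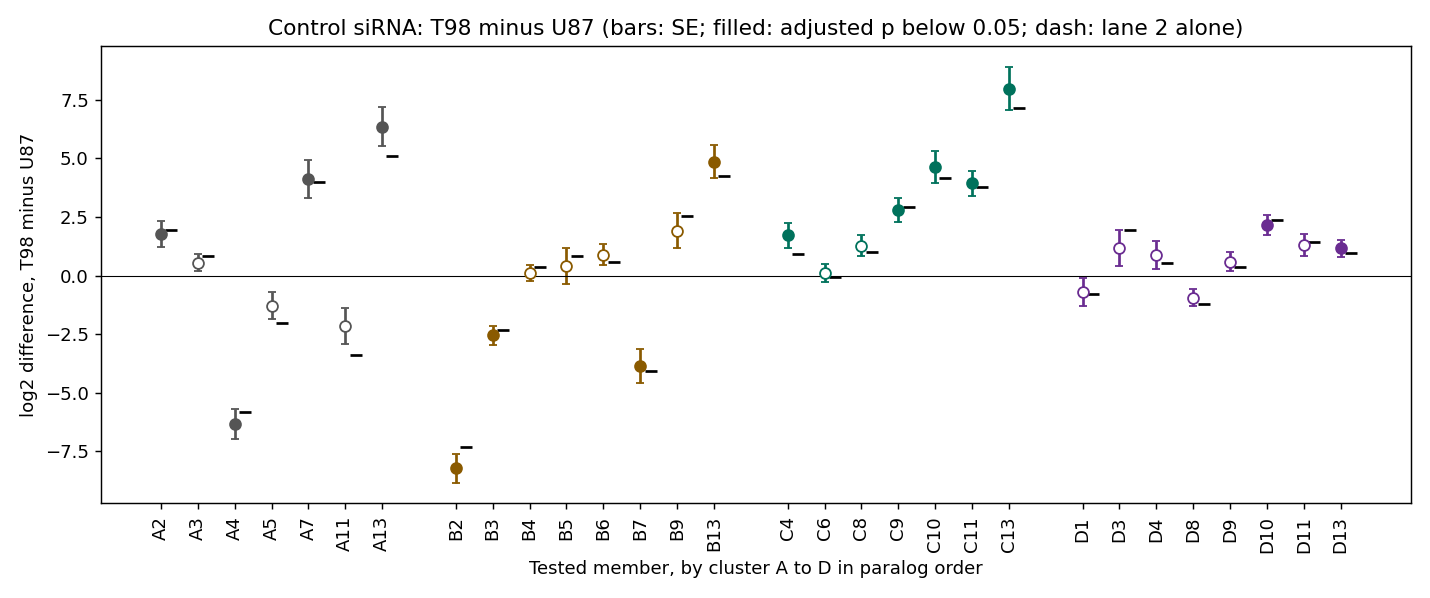
T98 minus U87 in control siRNA libraries for tested members, as the log2 difference (y axis) by cluster and paralog number (x axis). Points with bars are estimates with their SE, filled where the adjusted p is below 0.05, and dashes are the lane 2 libraries alone. The largest differences are HOXB2 (-8.22), HOXC13 (7.98), HOXA13 (6.35) and HOXA4 (-6.34).

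The HOX level per kilobase was also summed over all 37 members. Members with paralog numbers 9 to 13 held 64.4% and 64.9% of this sum in the T98 control libraries and 14.4% and 15.6% in the U87 control libraries. Numbers 1 to 3 held 8.67% and 8.34% in T98 and 37.7% and 47.7% in U87. The HOXC cluster held 51.9% and 43.6% of the T98 sum, and the HOXB cluster 33.2% and 43.6% of the U87 sum. The groups of the 2 lines did not overlap in any of these shares. The total was 1802 and 1863 per kilobase in T98 and 1403 and 1312 in U87. HOXC10 alone held 22.2% and 18.2% of the T98 sum.

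**Figure D3:**
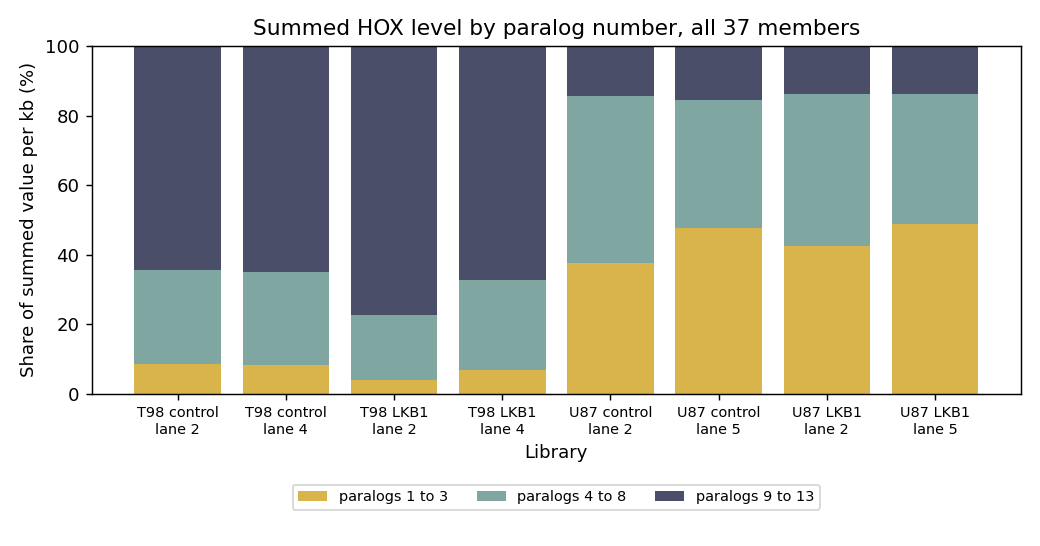
Share of the summed HOX value per kilobase (percent) held by paralog numbers 1 to 3, 4 to 8 and 9 to 13 in each of the 8 libraries. Numbers 9 to 13 hold 64.4% and 64.9% in the T98 control libraries and 14.4% and 15.6% in the U87 control libraries. The share in the lane 2 T98 library with LKB1 siRNA is 77.3%.

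In the HOXA cluster (hg19 chromosome 7, minus strand), members differed in opposite directions. HOXA4 (27168125 to 27170399) had 1 and 0 reads in the T98 control libraries and values of 114 and 116 in the U87 control libraries. HOXA4 was therefore lower in T98, with a log2 difference of -6.34 (SE 0.65, adjusted p = 0.00038 by limma), and 1 read against 230 is a U87 to T98 ratio of 230 (95% counting interval 40.8 to 9108). HOXA7 (27193337 to 27196296), a gene of the trunk domain, was the reverse, with 32.1 and 54.2 in T98 and 1.07 and 1.91 in U87. Its log2 difference was 4.12 (SE 0.80, adjusted p = 0.0066), from 87 reads against 3, a ratio of 29.05 (counting interval 9.62 to 144). HOXA13 (27236498 to 27239725), which patterns the distal limb and the urogenital tract, had 68.4 and 195 in T98 and 1.05 and 0 in U87. HOXA13 was higher in T98 by 6.35 (SE 0.84, adjusted p = 0.0012), from 269 reads against 1, a ratio of 269 (counting interval 48.0 to 10682). Both T98 libraries were above both U87 libraries for HOXA7 and HOXA13, and for HOXA4 both were below.

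HOXA11 stood between HOXA7 and HOXA13 in the opposite direction. Its values were 4.38 and 20.05 in T98 and 54.8 and 38.1 in U87, without overlap. The log2 difference of HOXA11 was -2.13 (SE 0.77, adjusted p = 0.062), and it passed in the lane-term fit at -3.09 (SE 0.44, adjusted p = 0.00061). It also passed without the lane 4 T98 control library, at an adjusted p of 0.026. HOXA2, which patterns the hindbrain and the second pharyngeal arch, had 39.4 and 28.4 in T98 and 9.50 and 8.58 in U87, a log2 difference of 1.78 (SE 0.55, adjusted p = 0.038). That call was lost when any of 7 of the 8 libraries was left out, with adjusted p up to 0.17, and it held only without the lane 5 U87 library with LKB1 siRNA.

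The promoter windows of HOXA4, HOXA7, HOXA11 and HOXA13 are shown because these genes of 1 cluster alternate in the direction of their difference. The table of RefSeq promoter windows used here (GRCh38.p14) matched 18 of the 37 members, with windows from 250 bases before to 50 after the annotated start, and each is written 5′ to 3′ on the minus strand. They are chr7:27130708-27131007 for HOXA4, chr7:27156626-27156925 for HOXA7, chr7:27185183-27185482 for HOXA11 and chr7:27200042-27200341 for HOXA13. Capitals mark TGACAG, a motif bound by MEIS proteins. It was searched on both strands, as were TGATNNAT, bound by PBX with HOX, and TATAAA.
HOXA4: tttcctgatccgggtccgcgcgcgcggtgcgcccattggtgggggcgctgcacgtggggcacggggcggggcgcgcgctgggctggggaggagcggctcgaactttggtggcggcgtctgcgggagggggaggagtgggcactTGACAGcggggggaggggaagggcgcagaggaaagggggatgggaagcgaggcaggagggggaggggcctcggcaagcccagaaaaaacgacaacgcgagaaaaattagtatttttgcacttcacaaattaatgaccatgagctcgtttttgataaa
HOXA7: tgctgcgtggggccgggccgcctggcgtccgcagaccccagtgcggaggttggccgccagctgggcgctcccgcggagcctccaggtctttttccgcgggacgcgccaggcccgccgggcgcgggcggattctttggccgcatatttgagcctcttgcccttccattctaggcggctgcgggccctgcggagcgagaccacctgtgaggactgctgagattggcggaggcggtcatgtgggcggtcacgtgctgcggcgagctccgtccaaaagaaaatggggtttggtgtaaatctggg
HOXA11: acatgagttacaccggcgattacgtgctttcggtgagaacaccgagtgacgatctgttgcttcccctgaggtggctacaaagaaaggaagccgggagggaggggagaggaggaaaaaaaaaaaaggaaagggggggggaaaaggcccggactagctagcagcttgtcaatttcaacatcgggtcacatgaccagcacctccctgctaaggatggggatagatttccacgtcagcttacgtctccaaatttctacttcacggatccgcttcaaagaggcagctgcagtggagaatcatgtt
HOXA13: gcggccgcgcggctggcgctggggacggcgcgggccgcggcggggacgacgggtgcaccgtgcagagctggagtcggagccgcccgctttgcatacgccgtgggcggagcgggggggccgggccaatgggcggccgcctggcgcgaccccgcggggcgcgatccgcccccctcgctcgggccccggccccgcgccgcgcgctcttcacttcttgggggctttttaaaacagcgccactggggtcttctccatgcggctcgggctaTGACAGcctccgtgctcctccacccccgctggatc
The motif TGACAG stands in the windows of HOXA4, lower in T98, and HOXA13, higher in T98, and in 15.8% of all 35116 windows. TGATNNAT and TATAAA are in none of the 4 windows shown, and in 7.40% and 11.5% of all. The HOXA13 window is 76.3% G and C with 44 CpG dinucleotides, and that of HOXA11 51.3% with 13. HOXA4 had 63.3% and 27, and HOXA7 68.0% and 31. The median window had 58.7% and 14.

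HOXA5 and HOXA3 differed less than these members. HOXA5 had 12.9 and 33.3 in T98 and 54.9 and 49.6 in U87, and its adjusted p was 0.11, or 0.020 with the lane term. HOXA3 had 163 and 117 in T98 and 91.9 and 95.5 in U87, with adjusted p = 0.26, or 0.029 with the lane term.

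In the HOXB cluster (hg19 chromosome 17, minus strand), the anterior members HOXB2 and HOXB3 were higher in U87. HOXB2 (46620018 to 46622393), a hindbrain gene, had the highest mean level per kilobase in U87, although HOXD8 was higher in the lane 2 control library (312 against 308 per kilobase). Its values were 494 and 558 in U87, and it had 2 and 0 reads in the T98 control libraries. Its log2 difference of -8.22 (SE 0.61, adjusted p = 0.00012) was the largest of any member, and 2 reads against 1052 is a U87 to T98 ratio of 525 (counting interval 145 to 4342). HOXB3 (46626231 to 46651810), its neighbour, had 52.3 and 63.6 in T98 and 264 and 446 in U87, a log2 difference of -2.55 (SE 0.41, adjusted p = 0.0029). HOXB7 (46684594 to 46688383) had 1.07 and 0.94 in T98 and 33.7 and 23.8 in U87, a log2 difference of -3.87 (SE 0.72, adjusted p = 0.0053). HOXB13 (46802126 to 46806111), at the other end of the cluster and best known from the prostate, had 78.0 and 215 in T98 and 3.18 and 3.82 in U87. It was higher in T98 by 4.86 (SE 0.72, adjusted p = 0.0020). The groups did not overlap for any of these 4 members.

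Between them, HOXB4 was at 107 and 101 in T98 and 82.4 and 113 in U87, with overlapping groups and a log2 difference of 0.10 (SE 0.35, adjusted p = 0.84). HOXB6 had 39.5 and 60.8 in T98 and 26.4 and 25.8 in U87 (adjusted p = 0.16). HOXB9 had 23.5 and 32.3 against 3.24 and 12.5 (adjusted p = 0.075, or 0.0048 with the lane term), and it passed without the lane 5 U87 control library at 0.042. HOXB5 was low in both lines, between 3.23 and 10.6. HOXB3 shares exon sequence with HOXB4 and HOXB6 in GENCODE, so reads there cannot be assigned to 1 of them with certainty.

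The HOXC cluster (hg19 chromosome 12, plus strand) carried the highest levels of T98. HOXC10 (54378945 to 54384062), a gene of the lumbar spinal cord and hindlimb, had 783 and 664 in T98 and 43.2 and 18.1 in U87, a log2 difference of 4.64 (SE 0.70, adjusted p = 0.0021). HOXC13 (54332575 to 54340328), which controls hair keratin genes, had 583 and 449 in T98 and 3.13 and 0 in U87. HOXC13 was higher in T98 by 7.98 (SE 0.93, adjusted p = 0.00071), from 1020 reads against 3, a ratio of 341 (counting interval 116 to 1654). HOXC11 (54366909 to 54370203) had 71.5 and 95.9 against 4.23 and 4.77, a log2 difference of 3.93 (SE 0.53, adjusted p = 0.0014). HOXC9 (54393876 to 54397120), a gene of thoracic motor neurons, had 79.9 and 64.5 against 9.51 and 9.54, a log2 difference of 2.79 (SE 0.52, adjusted p = 0.0056). HOXC12, which lies between HOXC13 and HOXC11, had 0 reads in both lines.

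Towards the other end of the cluster the lines came closer. HOXC8 had 114 and 106 in T98 and 56.9 and 35.3 in U87, a log2 difference of 1.28 (SE 0.44, adjusted p = 0.054, or 0.041 with the lane term). HOXC6 had 177 and 168 against 185 and 140, with overlapping groups (log2 0.10, SE 0.39, adjusted p = 0.86). HOXC4 had 179 and 178 in T98 and 93.8 and 30.4 in U87, a log2 difference of 1.72 (SE 0.53, adjusted p = 0.037). Without the lane 5 U87 control library HOXC4 differed by 0.92 (adjusted p = 0.16), and its call held only without the lane 2 U87 control library. HOXC4 and HOXC6 have the same annotated start in the table and share exon sequence, so their reads cannot be told apart with certainty. HOXC9 also shares exon sequence with HOXC6 in GENCODE, with the same limit.

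In the HOXD cluster (hg19 chromosome 2, plus strand), the median absolute log2 difference was 1.06, against 2.79 in HOXC, 2.24 in HOXB and 1.96 in HOXA. HOXD10 (176981491 to 176984670), a gene of lumbar motor neurons, had 203 and 238 in T98 and 38.1 and 61.2 in U87, a log2 difference of 2.16 (SE 0.43, adjusted p = 0.0074). HOXD13 (176957531 to 176960666), which shapes the digits, had 240 and 223 against 121 and 86.8, a log2 difference of 1.16 (SE 0.36, adjusted p = 0.037). The HOXD13 call was lost without any 1 of the control libraries or of the T98 libraries with LKB1 siRNA, with adjusted p up to 0.17. HOXD11 had 156 and 192 against 57.1 and 82.1 (log2 1.32, SE 0.47, adjusted p = 0.061, or 0.0024 with the lane term). HOXD10 and HOXD11 share exon sequence in GENCODE, so reads there cannot be assigned to 1 of them with certainty. HOXD8 was the second member by mean level per kilobase in U87, with values of 820 and 459 there and 356 and 283 in T98, and its adjusted p was 0.077, or 0.0012 with the lane term. HOXD3, HOXD4, HOXD9 and HOXD1 were at most 123 in each control library, and their adjusted p lay between 0.26 and 0.37.

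In 18 members an exon overlaps that of a gene on the opposite strand in GENCODE, such as HOTTIP at HOXA13 and HOXA11-AS at HOXA11. The library kit keeps no strand, so reads from these genes and from the HOX member cannot be told apart there.

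Genes around the clusters varied, and those named here lay up to 1021786 bases away (HNRNPA3). SKAP2, the nearest gene of the table beyond the low-numbered end of the HOXA cluster, had a log2 difference of -1.81 (SE 0.28, adjusted p = 0.0024), and HIBADH, beyond HOXA13, was higher by 2.21 (SE 0.23, adjusted p = 0.00046). EVX1 and EVX2, homeobox genes beside HOXA13 and HOXD13, had values of at most 0.96 and 2.12. PRAC, which lies inside the HOXB cluster beside HOXB13, had 0 reads in all 8 libraries. At HOXC, SMUG1, the nearest gene after the cluster, was lower in T98, with a log2 difference of -0.67 (SE 0.19, adjusted p = 0.028), and ATP5G2, the nearest before it, differed by -0.19 (adjusted p = 0.46). The nearest tested genes of the table on either side of HOXB were SNX11 (log2 -0.03, adjusted p = 0.92) and TTLL6 (3.48, adjusted p = 0.033). TTLL6 was low, at 6.55 and 31.5 in the T98 control libraries and 0.0065 and 0.96 in those of U87. Those on either side of HOXD were KIAA1715 (0.38, adjusted p = 0.24) and HNRNPA3 (1.30, adjusted p = 0.0040).

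Partners and regulators of HOX genes were counted from lists. Their median log2 difference was 0.47 for cofactors, 0.58 for regulators and 1.13 for forebrain and midbrain factors, beside -0.01 for all genes. Of the PBX, MEIS and PKNOX cofactors, 7 were tested, with 1 higher in T98 (18.3% of all genes) and 1 lower (19.5%). MEIS1 was the higher one (432 and 619 against 104 and 138, log2 2.11, adjusted p = 0.0047). MEIS3 was the lower one (221 and 654 against 1343 and 865, log2 -1.50, adjusted p = 0.049). Of 28 tested regulators, 10 were higher in T98 and 3 lower, beside 18.3% and 19.5% of all genes. The Polycomb gene CBX2 had 3538 and 3622 in T98 and 72.8 and 58.2 in U87 (log2 5.76, SE 0.27, adjusted p = 3.91e-05). MLL had 6024 and 4297 against 673 and 1795 (log2 2.21, SE 0.48, adjusted p = 0.00995), and the retinoic acid receptor gene RARB 2248 and 3438 against 320 and 324 (log2 3.11, SE 0.31, adjusted p = 0.00034). KDM6A, which removes a Polycomb mark, was lower in T98, with a log2 difference of -1.14 (SE 0.24, adjusted p = 0.0093). Of 15 tested transcription factor genes of the forebrain and midbrain, which lie ahead of the HOX domain, 6 were higher in T98 and 2 lower, beside the same shares. EN2 had 143 and 126 in T98 and no reads in U87. PAX6 was lower in T98, with 68.3 and 88.3 against 397 and 456 (log2 -2.44, SE 0.46, adjusted p = 0.0058). The part of these genes in the HOX levels was not tested.

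LKB1 siRNA was then compared with control siRNA within each line. By limma-trend, 0 of 31 members passed in T98, where 0.028% of all genes did, and 0 passed in U87, where 0.056% did. In this fit STK11 itself had a log2 difference of -2.17 in T98 (adjusted p = 0.082) and -2.58 in U87 (adjusted p = 0.047). A count of 0 therefore does not show that no member changed. For the mean of both effects 0 members passed, beside 1.86% of all genes, and for their difference 0, beside 0% of all genes. At an unadjusted p below 0.05 there were 2 members in T98 (HOXA5 among them, beside 10.5% of all genes), 1 in U87 (8.88%), 1 for the mean (15.8%) and 0 for the difference (2.57%). By edgeR without a lane term 0 passed in each comparison, and by DESeq2 1 passed in U87, 1 for the mean and 0 in the others. With the lane term, 2 members passed in T98 (HOXA5 among them, beside 15.8% of all genes), 1 in U87 (11.2%), 1 for the mean (26.4%) and 0 for the difference (0.476%), where 2 had an unadjusted p below 0.05, beside 14.8% of all genes. The comparison of the lines and that within a line share the control libraries.

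**Figure D4:**
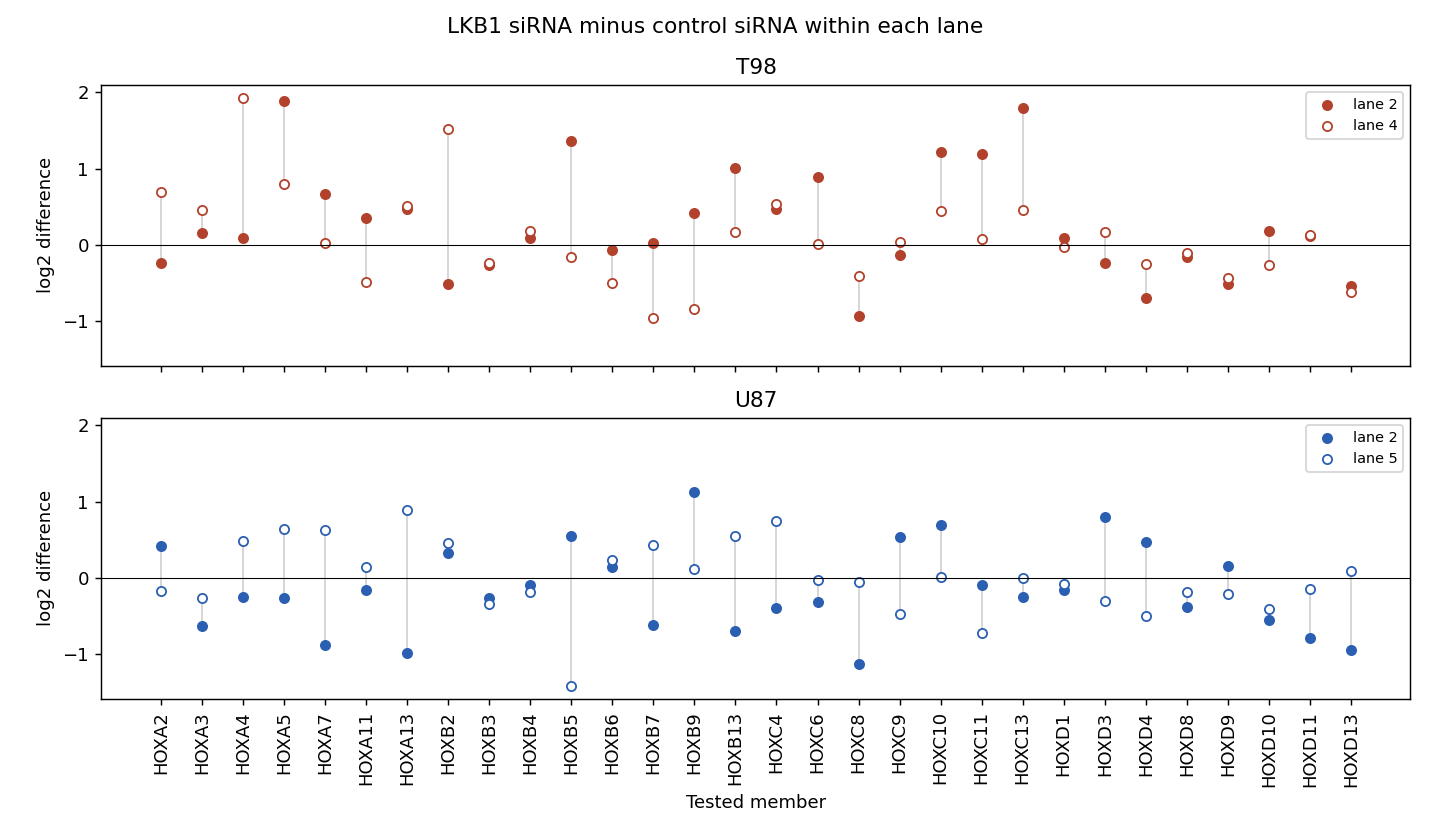
LKB1 siRNA minus control siRNA within each sequencing lane (y axis, log2 difference of the value plus 1) for tested members, in T98 (top) and U87 (bottom). Filled points are lane 2 and open points lane 4 or lane 5. In T98, HOXA5 lies at 1.88 in lane 2 and 0.80 in lane 4, and HOXC13 at 1.80 and 0.46.

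HOXA5, the neighbour of HOXA4 and a gene of the lung and phrenic motor column, had 12.9 and 33.3 in T98 with control siRNA and 50.2 and 58.7 with LKB1 siRNA. Within lanes it was higher by 1.88 and 0.80, and the log2 difference of 1.34 had an adjusted p of 0.47, or 0.049 with the lane term (SE 0.37). By edgeR with a lane term its adjusted p was 0.052, and in limma the lane-term call was lost without either lane 2 T98 library or any U87 library. In U87, HOXA5 had 54.9 and 49.6 with control siRNA and 45.6 and 78.2 with LKB1 siRNA, and the groups overlapped.

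The 2 leading HOXC members of T98 were highest in the lane 2 library with LKB1 siRNA. HOXC13 had 583 and 449 with control siRNA and 2032 and 617 with LKB1 siRNA, which is 1.80 higher in lane 2 and 0.46 in lane 4 on the log2 scale. HOXC10 had 783 and 664 with control siRNA and 1827 and 906 with LKB1 siRNA, 1.22 higher in lane 2 and 0.45 in lane 4. For HOXC13 the log2 difference of 1.13 had an adjusted p of 0.73, or 0.077 with the lane term, and for HOXC10 that of 0.83 had 0.73, or 0.069. By edgeR with a lane term both passed, at 0.035 and 0.027. Without either lane 4 T98 library both passed in the lane-term fit, but the T98 effect is then 1 lane 2 library against 1, and its spread is taken from the U87 libraries and assumed to be the same. In the same way, without either lane 2 T98 library HOXC13 differed by 0.46 and HOXC10 by 0.45.

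**Figure D5:**
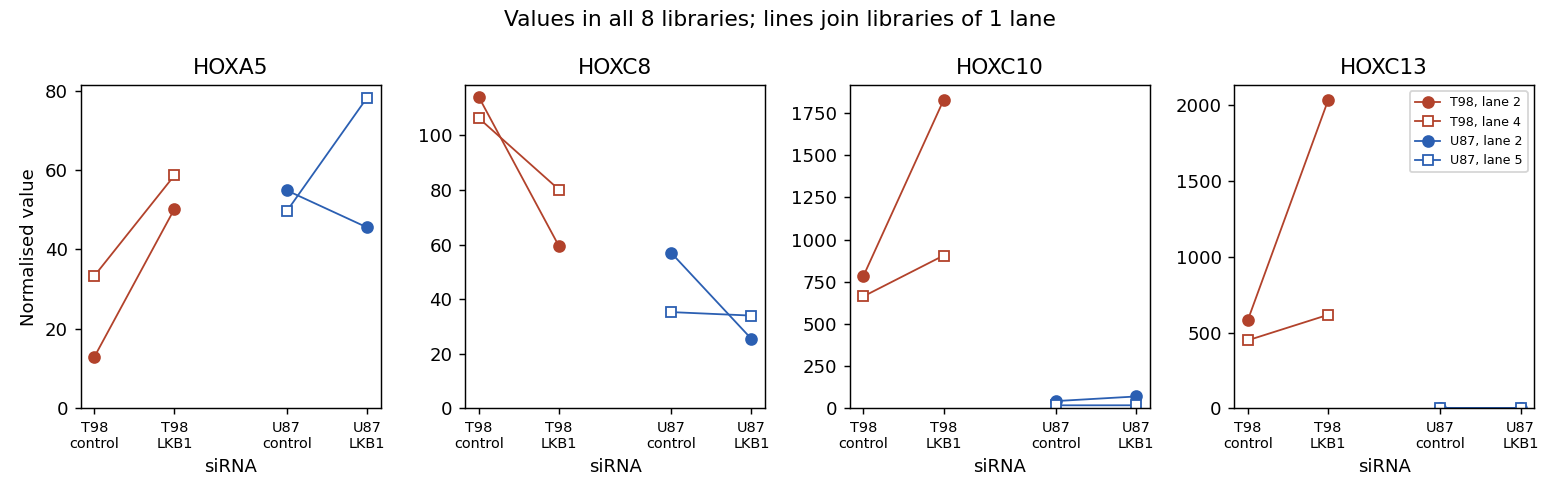
Normalised value (linear axes from 0, 1 scale per gene) of HOXA5, HOXC8, HOXC10 and HOXC13 in all 8 libraries. Lines join the control and LKB1 siRNA libraries of 1 lane, with filled circles for lane 2 and open squares for lane 4 (T98) or lane 5 (U87). HOXC13 reaches 2032 and HOXC10 1827 in the lane 2 T98 library with LKB1 siRNA.

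Over all tested members, both LKB1 siRNA libraries were above both control libraries for 7 members in T98 (20.5% of all genes) and below them for 4 (also 20.5%). In U87 they were above for 2 members (17.6%) and below for 4 (20.2%). Lower without overlap in both lines were 2 members, HOXC8 among them (8.54% of all genes), and 0 members were higher in both (7.55%). HOXC8 had 114 and 106 in T98 with control siRNA and 59.4 and 80.1 with LKB1 siRNA, and 56.9 and 35.3 against 25.4 and 34.0 in U87. Its mean effect was -0.63 (SE 0.31, adjusted p = 0.39, or 0.084 with the lane term). HOXB4 stayed between 77.2 and 115 in all 8 libraries. With LKB1 siRNA, HOXB2 was at 1.17 and 1.87 in T98 and 617 and 763 in U87.

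Among the cofactors, 0 of 7 passed for LKB1 siRNA by limma-trend without the lane term. For the mean effect with the lane term 4 were higher and 0 lower, beside 26.4% of all genes in either direction. MEIS3 was higher by 1.00 (SE 0.16, adjusted p = 0.0049 with the lane term), MEIS2 by 0.70 (0.0041) and PBX2 by 0.41 (0.013). Of the 28 regulators, 0 passed for the mean effect without the lane term, beside 1.86% of all genes. With the lane term 3 were higher and 8 lower, again beside 26.4% of all genes in either direction. EZH2, the Polycomb methyltransferase gene, was 1 of the 8 and was singled out after its values were seen. Its values were 3999 and 1989 in T98 with control siRNA and 2732 and 1818 with LKB1 siRNA, and 2154 and 2052 against 822 and 929 in U87. With the lane term the log2 difference was -0.34 in T98 (adjusted p = 0.15) and -1.27 in U87 (adjusted p = 0.0035), and the difference between these effects had an adjusted p of 0.11. Without the lane term the adjusted p was 0.80 in T98 and 0.21 in U87.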

How the data were processed

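RNA-seq of 8 libraries (4 groups of 2) was analysed. The submitters' processing notes name TopHat2 2.0.8b, the build hg19/GRCh37 and, without a version, edgeR. The sources used here do not give the read counter. The authors' deposited normalised signal values equal edgeR pseudo-counts at a common library size (common dispersion 0.06803). Inverting them gave whole reads within 0.05 read for 100% of values. Where a symbol had several rows, the one with the highest mean was tested. The test was limma-trend (R 4.3.3, limma 3.58.1) on log2(value + 1) for genes with a value of 10 or more in 2 libraries, with 4 group means, two-sided, Benjamini-Hochberg over 14282 genes, threshold 0.05. Fold changes of low genes are understated on that scale. Counting intervals (95%) cover counting error only. Lane differences correlated within a line at 0.72 (T98) and 0.81 (U87) and between lines at 0.12 to 0.18 over all genes (over the 31 members 0.33 and 0.50 within and 0.13 to 0.39 between lines), so a lane-term fit (2 residual degrees of freedom) was run as an alternative. Others were the pseudocount, filter, scaling, edgeR 4.0.16 and DESeq2 1.42.0 on recovered reads, and leaving out each library. Both limma fits were run on simulated reads with set changes for LKB1 siRNA in T98 only. That simulation held no difference between the lines and no gene with a base level near 0, so it does not cover such calls. Members in full are all HOX symbols matching the rule. Those named in depth were the called members, the highest per kilobase and any called for LKB1 siRNA, with genes of preset lists and flanking genes. Some genes are included in the counts but not reported singly here. Members and lists were chosen with earlier results of these data known.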

Additional observations from a re-analysis of the deposited data

How the results depend on the processing

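For single members, 915 values under alternatives were compared with the reported ones: 768 kept their direction and their side of the threshold, 105 kept their direction and newly passed, 35 kept it and no longer passed, and 7 changed sign. The 35 concern HOXA2, HOXC4, HOXD13, HOXB7 and HOXC9. The 7 concern members that were not called: HOXB4 (-0.12 to 0.33), HOXB5 (-0.32 to 1.13) and HOXC6 (-0.10 to 0.30) with 1 library left out, and, in the lane-term fit, HOXB5 (-0.77), HOXD4 (-0.16 and -0.54) and HOXD9 (-0.0037) without 1 lane 2 control library. The number of members lower in T98 than in U87 rose from 4 to 8 with the lane term and with edgeR and a lane term. The number higher rose from 11 to 16 with the lane term. Without the lane 2 T98 control library, HOXA2, HOXC4 and HOXD13 lost their calls as higher in the fit without a lane term. Without the lane 2 U87 control library, HOXA2, HOXA3, HOXB9, HOXC8, HOXC9 and HOXD3 lost theirs in the lane-term fit. Among the lower members, HOXA5, HOXB7 and HOXD8 lost theirs there too. For LKB1 siRNA in T98, 0 higher became 1 with the lane term, 2 by edgeR with a lane term and 4 with the lane term without either lane 4 library, and 0 lower became 1 with the lane term, by edgeR with a lane term and without either lane 4 library. In U87, 0 lower became 1 with the lane term, by edgeR with a lane term, by DESeq2 and with the lane term without any T98 library. For the mean effect, 0 higher became 1 by edgeR with a lane term and 1 to 3 with the lane term without 1 T98 library, and 0 lower became 1 with the lane term, by edgeR with a lane term, by DESeq2, at a minimum value of 50 and with the lane term without 1 T98 library. The cause was not tested. No paired analysis was possible because the replicate numbers are only accession order; the lane term takes the place of a block, chosen with the lane shifts known. With 2 libraries per group, precision rests on 4 residual degrees of freedom, and members with 1 to 3 reads in a group have wide counting intervals. The fits of the lane term without 1 library and of edgeR with a lane term were chosen after seeing the data.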
